A study of Mus musculus with 6 samples.

Results

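The costimulatory and checkpoint ligands considered here were 10 genes chosen by name, *Cd274*, *Pdcd1lg2*, *Cd80*, *Cd86*, *Cd40*, *Icosl*, *Cd276*, *Vsir*, *Havcr2*, and *Nt5e*, out of 54232 genes in the files. They encode the surface proteins with which a myeloid cell costimulates or restrains a T cell, although *Havcr2* encodes a receptor, *Nt5e* an enzyme, and *Cd40* the receptor of a ligand on T cells. RNA-seq was performed on monocytes sorted from the CNS of mixed BM chimeras with EAE, a mouse model of multiple sclerosis induced by immunization, and 9 of the 10 genes had enough counts to be tested. Irradiated GFP+ recipients had been reconstituted with equal parts of WT (CD45.1) and *Ifnar1*-/- (CD45.2) BM, were immunized 6 to 7 weeks later, and received 30000 IU of IFN-β daily. GFP- CD45+CD11b+Ly6ChiLy6G- cells were sorted at disease peak into 3 WT libraries and 3 *Ifnar1*-/- libraries, numbered 1 to 3 in each group. IFNAR1 is a chain of the receptor for type I IFNs, so the comparison was between donor cells that could and could not sense IFN-β in hosts that all received it. No library came from mice without IFN-β. The CD45 allele differed together with *Ifnar1*, so the 2 cannot be told apart. There were 3 recipient mice, and which mouse each library came from is not given in the sources used here, so a WT and an *Ifnar1*-/- library may come from the same mouse. The p-values below measure the spread between libraries, which is technical as far as libraries of a group share a mouse.

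A T cell that recognizes antigen responds fully only with a second, costimulatory signal, which CD80 and CD86 on the antigen-presenting cell provide through CD28 and ICOS ligand through ICOS. CD40 works in the opposite direction and activates the presenting cell when it meets CD40 ligand on a T cell. PD-L1 (*Cd274*) and PD-L2 (*Pdcd1lg2*) restrain T cells through PD-1, CD80 and CD86 do so when bound by CTLA-4, and B7-H3 (*Cd276*) and VISTA (*Vsir*) are related proteins of the B7 family. CD73 (*Nt5e*) acts as an enzyme, by producing adenosine outside the cell. In EAE, infiltrating monocytes meet CD4+ T cells in the CNS, and type I IFN is known as an inducer of several of these ligands in cultured myeloid cells.

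Expected counts totaled 4531782 to 7321380 per library. Between libraries, levels of a gene are given as normalized CPM, that is, CPM computed with TMM-adjusted library sizes. *Ifnar1* was at 153, 126, and 111 normalized CPM in the WT libraries (1, 2, and 3), and at 110, 102, and 109 in the *Ifnar1*-/- libraries (adjusted p = 0.360, edgeR quasi-likelihood test). Counts over the whole gene, with no value per exon, do not check the deletion, nor do those of *Ptprc* (CD45), at 596 to 675, tell CD45.1 from CD45.2. All 20 interferon-stimulated genes of a list were higher in WT, by 1.02 to 5.22 on the log2 scale with a median of 4.08. Among them were *Oas1a* (4.70), *Ifit2* (4.52), *Usp18* (4.09), *Mx1* (4.47), and *Ifit3* (5.22). The list was chosen with earlier results of these data known. The 8 monocyte markers summed to 7961 to 9716 normalized CPM in WT and 8404 to 9661 in *Ifnar1*-/- libraries. *Ly6c2*, whose product is the Ly6C of the sort gate, was 2.65-fold higher in WT (adjusted p = 0.00957), at 640 to 788 against 177 to 337, and it shares near-identical sequence with *Ly6c1*. The largest part of the monocyte sum was *Lyz2* (3212 to 5271), and markers that were not called lay on both sides. *Ccr2* was at 587 to 694 in WT and 794 to 1269 in *Ifnar1*-/- libraries (log2 fold change -0.62, adjusted p = 0.143, edgeR). *Fcgr1* was at 271 to 413 and 192 to 203 (0.71, adjusted p = 0.0839). The sum of the 7 neutrophil markers was 1356 in WT library 3 and 1329 in *Ifnar1*-/- library 3, and 149 to 425 elsewhere. T cell markers summed to 21.9 to 49.8 in WT and 8.98 to 20.8 in *Ifnar1*-/- libraries. Of the 7 tested, 0 were called (1.67% higher and 0.462% lower over all genes tested). However, all 7 had an unadjusted p under 0.05 with the estimate higher in WT (edgeR). Over all genes tested, 17.8% had such a p, in either direction. In bulk RNA of this kind, fewer cells of a type and less RNA per cell cannot be told apart.

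Among the 10 genes, *Cd40* was called higher in WT monocytes, none was called lower, 8 were tested and not called, and *Cd276* was too low to be tested. A gene was called where its adjusted p did not exceed 0.05 and it changed at least 1.5-fold, which 1.67% of the 11254 genes tested met in the direction of higher in WT and 0.462% in the direction of lower. The median log2 fold change of the 9 tested genes, WT over *Ifnar1*-/-, was 0.06, beside -0.01 over all genes tested. All 3 WT libraries lay above all 3 *Ifnar1*-/- libraries for *Cd40* and *Icosl*, 2 of the 9, a pattern that 11.1% of all genes tested showed. The reverse pattern, seen in 12.2% of all genes tested, was seen in 0 of the 9. DESeq2 and limma-voom also called *Cd40* higher and 0 lower, and 3 of the 9, *Cd40*, *Icosl*, and *Nt5e*, had an unadjusted p under 0.05 in edgeR, as did 17.8% of all genes tested.

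**Figure D1:**
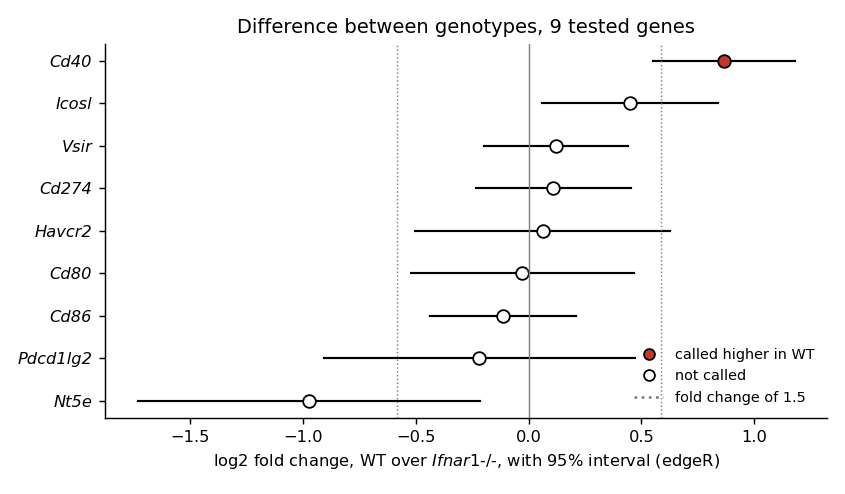
Log2 fold change of WT over *Ifnar1*-/- (horizontal axis) of the 9 tested genes from the edgeR fit, with points for the estimate and bars for its 95% confidence interval, which is not adjusted for the number of genes. *Cd40* at 0.87 is the called gene, the intervals of *Icosl* and *Nt5e* lie on either side of 0 without a call, and the other 6 intervals include 0.

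Levels of different genes were compared in TPM, which accounts for gene length. In WT monocytes the most abundant transcript of the 10 was *Vsir*, at 154 ± 23.0 TPM (SD, n = 3), followed by *Cd274* at 84.4 ± 24.2 and *Cd86* at 60.1 ± 7.05. *Havcr2* (29.3 ± 4.68) and *Cd40* (27.6 ± 5.72) came next, then *Icosl* (12.5 ± 0.936), *Cd80* (9.81 ± 1.13), *Nt5e* (7.53 ± 1.87), *Pdcd1lg2* (5.12 ± 1.28), and *Cd276* (0.340 ± 0.225). Neighbors in this order that overlapped between libraries were *Cd274* with *Cd86*, *Havcr2* with *Cd40*, *Cd80* with *Nt5e*, and *Nt5e* with *Pdcd1lg2*. The first 4 places and the last 2 were the same in *Ifnar1*-/- monocytes, where *Vsir* was at 144 ± 11.3, *Cd274* at 77.2 ± 14.2, *Cd86* at 65.0 ± 8.57, *Havcr2* at 28.9 ± 6.59, *Pdcd1lg2* at 6.25 ± 1.34, and *Cd276* at 0.270 ± 0.204 TPM. Between them stood *Nt5e* (15.8 ± 6.12), *Cd40* (14.3 ± 1.61), *Cd80* (10.3 ± 4.24), and *Icosl* (9.21 ± 0.914), of which each overlapped with the next, as *Cd274* did with *Cd86*. By mean, coinhibitory *Vsir* and *Cd274* thus stood above the CD28 ligands in both groups, and within each pair of related ligands 1 gene exceeded the other in every library, *Cd274* over *Pdcd1lg2* and *Cd86* over *Cd80*.

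**Figure D2:**
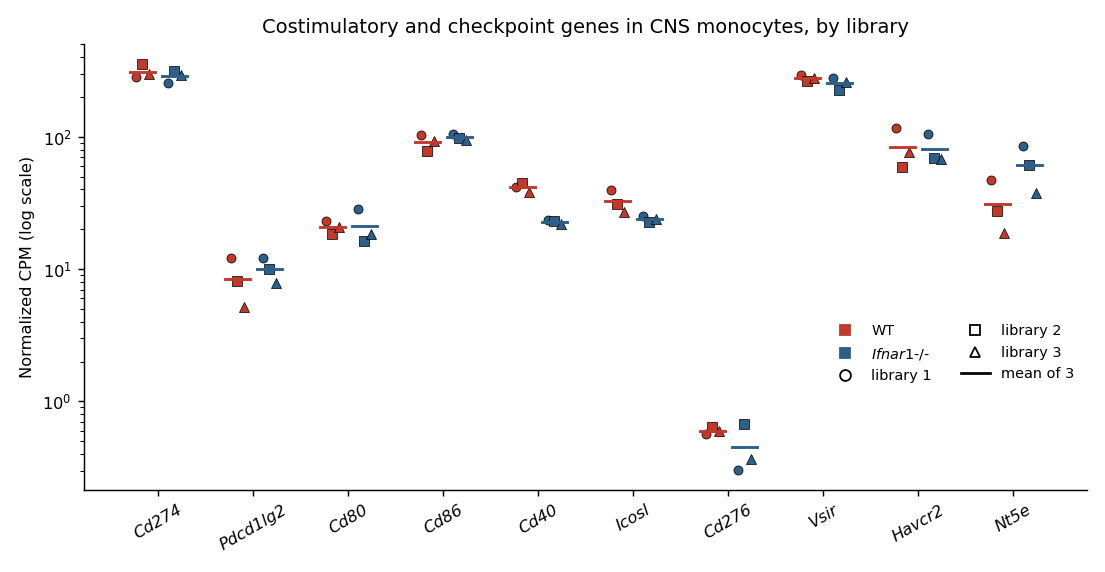
Normalized CPM (log axis) of each of the 10 genes in the 3 WT and 3 *Ifnar1*-/- libraries, with a point per library (WT in red, *Ifnar1*-/- in blue, the shape giving the library number) and a line at each group's mean. *Cd40* and *Icosl* are the genes whose groups do not overlap, and *Nt5e*, *Havcr2*, and *Pdcd1lg2* spread widely within both groups.

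*Cd40* encodes the TNF-family receptor through which T cells license antigen-presenting cells, and it was 1.82-fold higher in WT than in *Ifnar1*-/- monocytes (95% interval, 1.47 to 2.26). The gene (ENSMUSG00000017652.16) lies on the plus strand of chromosome 2, from 165055627 to 165072948 in GRCm38. It was at 42.0, 44.8, and 38.1 normalized CPM in the WT libraries, and at 23.4, 23.0, and 22.1 in the *Ifnar1*-/- libraries, in the order of their numbers as for all values below. The lowest WT library was thus above the highest *Ifnar1*-/- library, and the means of 41.6 ± 3.38 and 22.8 ± 0.675 were separated by far more than either SD (n = 3 each). These values rested on 193 to 295 counts per WT library and 120 to 153 per *Ifnar1*-/- library. On the log2 scale this was 0.87 (SE 0.14, adjusted p = 0.00936, edgeR), smaller than that of any of the 20 interferon-stimulated genes. Those 20 were chosen with earlier results of these data known, so the order says little about *Cd40*. On the same data in TPM the log2 fold change was 0.91 and the adjusted p was 0.190 in limma. The adjusted p was 0.0525 without *Ifnar1*-/- library 3 and 0.143 without library 3 of both groups, with log2 fold changes of 0.86 and 0.91.

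B cells and dendritic cells also express *Cd40*. Of the B cell markers, *Pax5* had 0 counts in all 6 libraries, and the markers together summed to 1.49 to 1.71 normalized CPM in WT and 0.305 to 1.10 in *Ifnar1*-/- libraries. Most of this sum was *Cd79b*, which had 11, 7, and 7 counts in WT and 2, 4, and 5 in *Ifnar1*-/- libraries and was not tested. The 10 markers of conventional dendritic cells summed to 27.2 to 35.1 in WT and 17.1 to 30.9 in *Ifnar1*-/- libraries, with none of the 4 tested called. The 7 of plasmacytoid dendritic cells summed to 55.5 to 72.6 and 37.9 to 54.5, every WT sum being above every *Ifnar1*-/- sum. Most of this was *Tcf4*, at 48.2 to 67.4 in WT and 34.6 to 50.7 in *Ifnar1*-/- libraries. *Tcf4* was not called (log2 fold change 0.40, adjusted p = 0.290, edgeR), and *Siglech* was at 0 to 1.97. The part of these cells in the *Cd40* result was not tested.

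Downstream of CD40, TRAF adaptors and the kinase NIK (*Map3k14*) activate the noncanonical NF-κB subunits encoded by *Nfkb2* and *Relb*. None of 12 genes of CD40 signalling was called in either direction by edgeR, 4 had an unadjusted p under 0.05 (17.8% over all genes tested), and all 12 had a log2 fold change above 0 (48.2% over all genes tested), from 0.12 to 0.61 with a median of 0.32. *Traf1*, which encodes an adaptor of TNF receptors and is itself an NF-κB target, was at 39.7, 34.6, and 35.9 normalized CPM in WT and 29.0, 24.7, and 20.2 in *Ifnar1*-/- libraries (log2 fold change 0.57, adjusted p = 0.119, edgeR). *Relb* was at 47.6 to 54.2 in WT and 29.1 to 42.4 in *Ifnar1*-/- libraries (0.55, adjusted p = 0.135). In both genes all 3 WT libraries lay above all 3 *Ifnar1*-/- libraries, but neither passed the test after adjustment over all genes. This pattern was seen in 4 of the 12, *Nfkb2* included, and in 11.1% of all genes tested. *Nfkb2* (0.49, adjusted p = 0.178) and *Map3k14* (0.61, adjusted p = 0.251) did not pass it either.

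The CD28 and CTLA-4 ligands did not differ beyond the spread between libraries. *Cd86* (ENSMUSG00000022901.13, chromosome 16, 36603869 to 36666081, minus strand) was at 103, 77.8, and 93.4 normalized CPM in WT and 104, 97.3, and 95.3 in *Ifnar1*-/- libraries. *Cd80* (ENSMUSG00000075122.5, chromosome 16, 38455561 to 38496335, plus strand) was at 23.2, 18.3, and 20.7 in WT and 28.4, 16.4, and 18.6 in *Ifnar1*-/- libraries. The groups overlapped for both genes, and *Ifnar1*-/- library 1 held the highest value of each. *Cd86* had a log2 fold change of -0.11 (SE 0.15, 95% interval -0.44 to 0.21, adjusted p = 0.730, edgeR), so its interval included a change of 0.739-fold to 1.16-fold. *Cd80* had one of -0.03 (SE 0.22, 95% interval -0.52 to 0.47, adjusted p = 0.968), with 86 to 186 counts per library, and this interval still included a fold change of 1.38. Both genes share chromosome 16 with *Ifnar1*, at distances of 54.82 Mb and 52.99 Mb.

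Because both proteins compete for the same receptors, the balance of *Cd80* to *Cd86* was also taken within each library. Their TPM ratio was 0.168, 0.161, and 0.165 in WT and 0.243, 0.110, and 0.134 in *Ifnar1*-/- libraries. *Cd86* exceeded *Cd80* in all 6 libraries, and the 3 WT ratios lay within the range of the *Ifnar1*-/- ratios. The log2 ratio was -2.60 ± 0.03 in WT and -2.71 ± 0.59 in *Ifnar1*-/- monocytes, a difference of 0.10 (two-sided exact permutation p = 0.8, adjusted p = 0.8 over 2 ratios). With 3 libraries against 3 this test cannot give a p below 0.1.

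*Icosl* encodes the ligand of ICOS, which costimulates follicular and effector T cells. Its gene (ENSMUSG00000000732.9, chromosome 10, 78069302 to 78083913, plus strand) was at 40.0, 30.8, and 26.9 normalized CPM in WT and 25.0, 22.9, and 23.9 in *Ifnar1*-/- libraries. Every WT library was above every *Ifnar1*-/- library, by a narrow margin for WT library 3. The means were 32.6 ± 6.74 and 23.9 ± 1.08 (n = 3 each), and the fold change was 1.36 (95% interval, 1.04 to 1.79). Its log2 fold change of 0.45 (SE 0.18) did not pass the test over all genes (adjusted p = 0.220, edgeR), and *Icosl* was called under 0 of 20 alternative analyses. Its log2 fold change was 0.28 without WT library 1 and 0.59 without WT library 3, the lowest and highest values when 1 library was left out.

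The PD-1 ligands were present at very different levels and neither was called. *Cd274* (ENSMUSG00000016496.7) and *Pdcd1lg2* (ENSMUSG00000016498.9) lie 0.0228 Mb apart on the plus strand of chromosome 19, from 29367455 to 29388095 and from 29410919 to 29471161. Their promoter windows, 250 bases before to 50 after the RefSeq transcript start in GRCm38.p6, are shown because the genes are neighbors that encode ligands of the same receptor. Both run 5′ to 3′ on the plus strand, at chr19:29367188-29367487 and chr19:29410669-29410968. Capitals mark the match to an IRF-like motif in *Cd274* and to the NF-κB consensus in *Pdcd1lg2*.
Cd274: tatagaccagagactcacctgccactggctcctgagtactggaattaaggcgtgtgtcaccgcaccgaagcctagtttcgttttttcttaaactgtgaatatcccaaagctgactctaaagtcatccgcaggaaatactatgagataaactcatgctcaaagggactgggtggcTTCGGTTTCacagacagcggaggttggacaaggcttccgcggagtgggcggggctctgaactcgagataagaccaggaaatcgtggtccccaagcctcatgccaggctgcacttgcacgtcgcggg
Pdcd1lg2: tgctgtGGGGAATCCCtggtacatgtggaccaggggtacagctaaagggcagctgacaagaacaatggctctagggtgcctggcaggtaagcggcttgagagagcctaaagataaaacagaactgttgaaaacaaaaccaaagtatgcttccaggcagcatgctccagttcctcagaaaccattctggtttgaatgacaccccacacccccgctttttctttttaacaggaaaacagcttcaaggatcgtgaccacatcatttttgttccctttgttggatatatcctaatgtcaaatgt
The *Cd274* window held 1 match to GAAANNGAA, the core of elements bound by IRF factors, which began 76 bases upstream of the start and read on the minus strand. The *Pdcd1lg2* window held 1 match to the NF-κB consensus, 244 bases upstream and on both strands, and no match to GAAANNGAA. Of 32851 mouse promoter windows in the table, 8.56% held GAAANNGAA on either strand, 8.46% the NF-κB consensus, and 8.30% the STAT-type motif TTCNNNGAA. The table had windows for 8 of the 10 genes, not for *Cd86* and *Cd40*. Of the other 6, *Icosl* held 1 NF-κB match and *Cd80*, *Cd276*, *Vsir*, *Havcr2*, and *Nt5e* held no match to any of these letters. TTCNNNGAA was in none of the 8. The windows of *Cd80*, *Cd276*, and *Nt5e* lay inside the annotated gene, so sequence before its outermost start was not searched. That of *Cd80* began at 38458683, whereas the gene starts at 38455561. Among the interferon-stimulated genes, 11 of the 15 with a window held GAAANNGAA. A match is a description of the sequence in the window and was not read as a binding site.

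*Cd274* was at 281, 354, and 298 normalized CPM in WT and 256, 316, and 293 in *Ifnar1*-/- libraries. In both groups library 1 was the lowest and library 2 the highest, and the groups overlapped. The means were 311 ± 38.0 and 288 ± 30.3 (n = 3 each), with a log2 fold change of 0.11 (SE 0.16, 95% interval -0.24 to 0.45, adjusted p = 0.759, edgeR). With 1511 to 1977 counts per library this was among the better-measured genes of the set, and its interval spanned fold changes of 0.849 to 1.37. An antisense transcript annotated opposite *Cd274* shares 511 exon bases with it, and the sources do not state that counting used strand, so reads of the 2 cannot be told apart. *Pdcd1lg2* was at 12.2, 8.08, and 5.13 in WT and 12.1, 10.0, and 7.91 in *Ifnar1*-/- libraries. The groups overlapped, library 3 was the lowest of both, and at 26 to 86 counts per library its log2 fold change of -0.22 was imprecise (SE 0.31, 95% interval -0.91 to 0.47, adjusted p = 0.759).

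The TPM ratio of *Cd274* to *Pdcd1lg2* was 9.58, 18.2, and 23.8 in WT and 8.94, 13.2, and 15.5 in *Ifnar1*-/- libraries. PD-L1 transcripts thus exceeded those of PD-L2 in every library, and the ratios of the groups overlapped. The log2 ratio was 4.01 ± 0.68 in WT and 3.61 ± 0.41 in *Ifnar1*-/- monocytes, a difference of 0.39 (two-sided exact permutation p = 0.4, adjusted p = 0.8 over 2 ratios). Leaving out 1 library moved the difference from 0.11 without WT library 3 to 0.77 without WT library 1, and it was 0.17 without *Ifnar1*-/- library 1.

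Genes that act on these ligands from 2 sides were examined next. PD-L1 is induced by IFN-γ through IRF1. Of 13 genes of interferon signalling, 1 was called higher and 0 were called lower (1.67% and 0.462% over all genes tested). The median log2 fold change was 0.24. The called gene was *Stat2*, whose product joins IRF9 in the complex formed after type I IFN, at 189, 123, and 139 normalized CPM in WT and 30.8, 44.1, and 35.3 in *Ifnar1*-/- libraries (4.10-fold higher, adjusted p = 0.000347, edgeR). *Irf1* was at 160 to 284 in WT and 201 to 251 in *Ifnar1*-/- libraries, with a log2 fold change of 0.01 (adjusted p = 0.989). At the protein level PD-L1 and CD86 are stabilized or degraded by CMTM6, SPOP, MARCH1, and other factors. Of 10 such genes 0 were called in either direction, and the median log2 fold change was -0.02. An unadjusted p under 0.05 was found for 2 (edgeR), beside 17.8% of all genes tested.

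*Vsir* encodes VISTA, an inhibitory protein that is abundant on myeloid cells. It (ENSMUSG00000020101.14, chromosome 10, 60346851 to 60372684, plus strand) was at 292, 266, and 277 normalized CPM in WT and 280, 228, and 260 in *Ifnar1*-/- libraries. The groups overlapped and WT was the higher in each of the 3 same-numbered pairs. The means were 278 ± 13.2 and 256 ± 26.5, with a log2 fold change of 0.12 (SE 0.14, 95% interval -0.20 to 0.44, adjusted p = 0.703, edgeR). *Vsir* lies opposite to *Cdh23*, with which it shares 0 exon bases.

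*Havcr2* encodes TIM-3, an inhibitory receptor on exhausted T cells that myeloid cells also carry. It (ENSMUSG00000020399.14, chromosome 11, 46454935 to 46481255, plus strand) was at 116, 58.9, and 77.0 normalized CPM in WT and 106, 68.6, and 67.7 in *Ifnar1*-/- libraries. Library 1 was the highest of both groups by a clear margin, and the spread within groups exceeded the difference between their means of 84.0 ± 29.3 and 80.7 ± 21.8. On the log2 scale the fold change was 0.06 (SE 0.26, 95% interval -0.50 to 0.63, adjusted p = 0.934, edgeR).

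Binding partners of TIM-3 and VISTA formed a list of 6 genes, of which 5 were tested. Of these, 1 was called higher and 0 were called lower (1.67% and 0.462% over all genes tested). Their median log2 fold change was 0.34. The called gene was *Lgals9*, which encodes galectin-9, a TIM-3 ligand. It was at 243, 176, and 150 normalized CPM in WT and 75.9, 78.8, and 72.3 in *Ifnar1*-/- libraries. All WT libraries were well above all *Ifnar1*-/- libraries, and the fold change was 2.51 (log2 1.33, SE 0.18, adjusted p = 0.00354, edgeR). *Selplg*, which encodes PSGL-1, a partner of VISTA, was at 199, 126, and 132 in WT and 75.6, 122, and 95.6 in *Ifnar1*-/- libraries, with a log2 fold change of 0.64 (adjusted p = 0.172). *Hmgb1*, which encodes an alarmin that binds TIM-3, lay the other way without overlap, at 115 to 123 in WT and 157 to 166 in *Ifnar1*-/- libraries (-0.43, adjusted p = 0.126).

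*Cd276* encodes B7-H3, which is found mainly on stromal and tumor cells and on some dendritic cells. The gene (ENSMUSG00000035914.11, chromosome 9, 58524298 to 58555437, minus strand) had 4, 3, and 3 counts in WT and 2, 4, and 2 counts in *Ifnar1*-/- libraries. These counts were near the floor of 3 counts, equal to 0.427 to 0.638 normalized CPM, so no fold change is given and a difference was not detectable at this depth. The floor accounts for counting error alone.

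*Nt5e* encodes CD73, the ectoenzyme that turns extracellular AMP into adenosine, and its estimated difference was the largest in size among the 9 tested genes but did not pass the test over all genes. The gene (ENSMUSG00000032420.8, chromosome 9, 88327197 to 88372092, plus strand) was at 47.1, 27.6, and 18.8 normalized CPM in WT and 85.8, 61.7, and 37.7 in *Ifnar1*-/- libraries. WT was the lower in each of the 3 same-numbered pairs, with log2 differences of -0.86, -1.14, and -0.99, yet the groups overlapped because WT library 1 was above *Ifnar1*-/- library 3. Means were 31.2 ± 14.5 and 61.7 ± 24.1 (n = 3 each). The level in *Ifnar1*-/- over WT was 1.96-fold (95% interval, 1.16 to 3.32), the log2 fold change of WT over *Ifnar1*-/- was -0.97 (SE 0.34), and the adjusted p was 0.176 (edgeR). It rested on 95 to 562 counts per library.

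The spread of *Nt5e* within groups was wide. Library 3 was the lowest of both groups, and it was the library with the highest sum of neutrophil markers in both, 1356 and 1329 normalized CPM. The sort was Ly6G-, *Ly6g* had 0 to 4 counts in every library, and the sum came mostly from the granule genes *Ngp*, *Ltf*, *Camp*, *Mpo*, and *Elane*, whose part in the level of *Nt5e* was not tested. Without library 3 of both groups the log2 fold change was -0.96 (adjusted p = 0.336, edgeR). Leaving out any 1 library gave values from -1.41 to -0.65 with adjusted p from 0.0645 to 0.521, lowest without WT library 1 and highest without *Ifnar1*-/- library 1. *Nt5e* was called lower in WT when no filter on low counts was used (adjusted p = 3.5e-06) and when the replicate number was added as a block (log2 fold change -1.01, adjusted p = 0.0109), although the libraries could not be shown to be paired.

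CD39 (*Entpd1*) supplies CD73 with AMP, and adenosine is then sensed by ADORA receptors or removed by uptake, phosphorylation, or deamination. Of 15 genes of this pathway besides *Nt5e*, 12 were tested. Of these, 1 was called higher and 0 were called lower (1.67% and 0.462% over all genes tested). Their median log2 fold change was 0.19. The called gene was *Pnp*, which encodes the purine nucleoside phosphorylase that degrades inosine, at 408, 428, and 387 normalized CPM in WT and 210, 212, and 219 in *Ifnar1*-/- libraries (1.91-fold, log2 0.93, SE 0.14, adjusted p = 0.00462, edgeR). Its groups were far apart relative to their spread. *Entpd1* was at 166, 168, and 153 in WT and 181, 222, and 169 in *Ifnar1*-/- libraries (log2 fold change -0.23, adjusted p = 0.459), so both ectoenzymes had estimates below 0 and neither passed the test. *Adora2a*, the receptor through which adenosine restrains leukocytes, had a log2 fold change of 0.75 (adjusted p = 0.230), and *Dpp4*, which encodes an anchor of adenosine deaminase in humans, one of 1.05 (adjusted p = 0.0842).

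The T cell receptors for these ligands were close to absent from the sorted cells. *Pdcd1* (PD-1) had 8, 6, and 0 counts in WT and 0, 1, and 7 in *Ifnar1*-/- libraries, and *Cd40lg* had 6, 2, and 1 against 1, 2, and 2. *Ctla4* had 31, 4, and 4 counts in WT and 15, 5, and 0 in *Ifnar1*-/- libraries, and *Icos* had 33, 7, and 9 against 9, 0, and 2. WT library 1, which had the highest total of counts, held the most reads of *Pdcd1*, *Ctla4*, *Icos*, and *Cd40lg*. *Cd28* was the only gene of these 5 that could be tested, with 17, 10, and 26 counts in WT and 12, 11, and 6 in *Ifnar1*-/- libraries (log2 fold change 0.98, adjusted p = 0.296, edgeR). The summed T cell markers were also higher in WT libraries, as given above, and their part in these counts was not tested.

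Of 16 other costimulatory and coinhibitory ligands, which included the TNF-family ligands, the nectins, and *Cd47*, 9 were tested and 0 were called in either direction. Their median log2 fold change was 0.20. An unadjusted p under 0.05 was found for 1 gene (edgeR), beside 17.8% of all genes tested. That gene was *Fgl2*, which encodes a secreted ligand of inhibitory Fc receptors. It was at 435, 555, and 455 normalized CPM in WT and 330, 315, and 307 in *Ifnar1*-/- libraries, without overlap (log2 fold change 0.60, adjusted p = 0.0815).

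**Figure D3:**
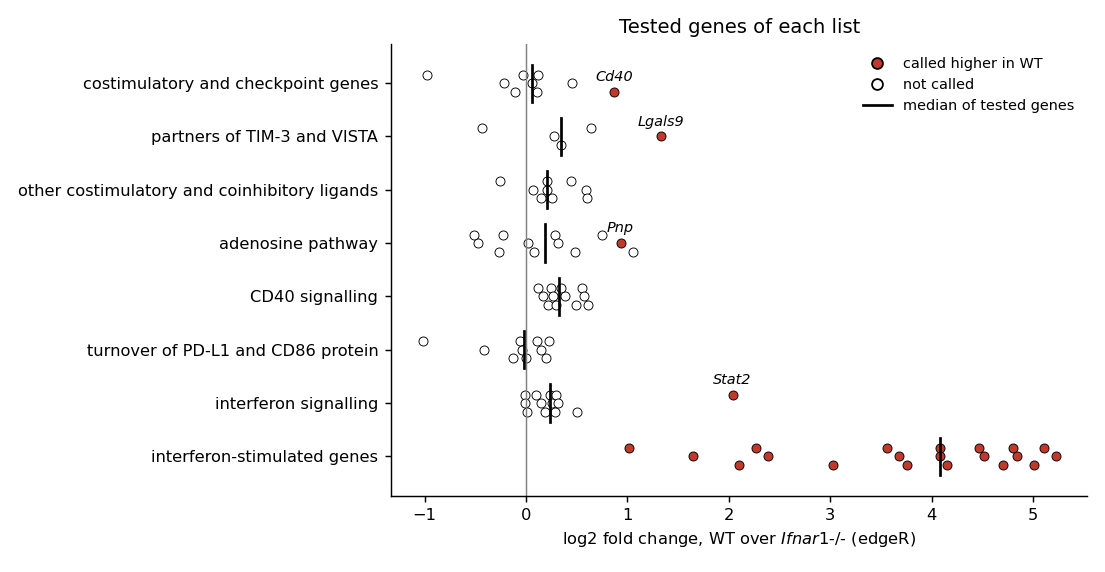
Log2 fold change of WT over *Ifnar1*-/- (horizontal axis) for each tested gene of the 10 genes and of the related lists, with a point per gene, filled in red where called higher, and a bar at each list's median; the receptors on T cells are not drawn. The interferon-stimulated genes lie from 1.02 to 5.22, and of the other lists the called genes are *Cd40*, *Lgals9*, *Pnp*, and *Stat2*.

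The calls were recomputed under 20 alternative analyses that changed the normalization, the filter, the test, the unit, the block, the threshold, or the libraries used. The alternative of the adjusted p alone kept the edgeR fit and dropped the fold threshold, so in it no sign could change and no call could be lost. *Cd40* kept its direction in 20 of 20 and its call in 16, with log2 fold changes of 0.82 to 0.95. *Cd274*, *Icosl*, and *Nt5e* also kept their direction in 20 of 20, and *Nt5e* was called in 4. The sign changed in 6 of 20 for *Cd80*, 3 for *Cd86*, 3 for *Havcr2*, 2 for *Vsir*, and 1 for *Pdcd1lg2*. The alternatives reused the same libraries, so a kept sign is no independent evidence of direction. No direction can be given for the genes whose sign changed, nor for *Cd274*, whose 95% interval of -0.24 to 0.45 included 0 (edgeR).

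**Figure D4:**
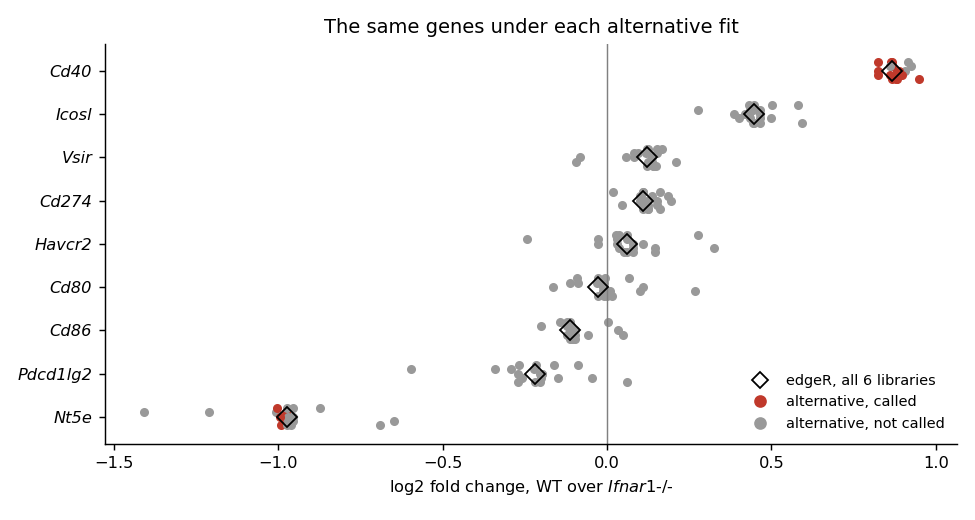
Log2 fold change of WT over *Ifnar1*-/- (horizontal axis) for each tested gene, with an open diamond for the edgeR fit on all 6 libraries and a point for each of the 20 alternatives, red where the gene was called and gray where it was not. Points of *Cd40* stay between 0.82 and 0.95, those of *Nt5e* between -1.41 and -0.65, and those of *Cd80* and *Havcr2* lie on both sides of 0.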

How the data were processed

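RNA-seq libraries of 3 WT and 3 *Ifnar1*-/- samples were grouped by the deposited labels. The authors sequenced paired-end reads of 75 bp, mapped them to GRCm38, and used RSEM to estimate expected counts and TPM per gene, and the submitters' processing notes name STAR 2.6.0c and RSEM 1.2.31. The labels and the study's methods name different stranded kits, and strand-specific counting is not given in the sources used here. The deposited expected counts are not normalized and need not be whole, so they were rounded. The authors' TPM values account for gene length and share a total across libraries. The deposited gene lengths entered the offsets alone, and FPKM values were not used. RSEM divides reads that fit several genes, which adds uncertainty for near-identical genes.

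Genes were named by GENCODE M21, which matched 54165 of 54232 identifiers. WT and *Ifnar1*-/- libraries were compared by edgeR 4.0.16 under R 4.3.3 (TMM factors, filterByExpr with a minimum count of 10, quasi-likelihood test without a block, Benjamini-Hochberg adjustment over 11254 of 21265 genes with a count). A gene was called where its adjusted p did not exceed 0.05 and it changed at least 1.5-fold. Intervals are at 95%. Log2 ratios used TPM plus 0.1 and exact permutation tests. Alternatives used RLE normalization, other filters, DESeq2 1.42.0 (the study's tool), limma 3.58.1 (voom, or log2 TPM), a replicate block, GC and length offsets, the adjusted p alone, and fewer libraries. The use of libraries 1 and 2 alone was chosen after seeing the data. The test was also run on simulated data.

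Named were the 10 genes, the receptors on T cells, the called genes of each other list (up to 5 by smallest p), *Ifnar1*, and *Ptprc*. Any other gene named was chosen after its values were seen. A few listed genes are not reported here by name. The 10 genes and all lists were chosen with earlier results of these data known.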

Additional observations from a re-analysis of the deposited data

How the results depend on the processing

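Over all genes, the edgeR test called 188 genes higher and 52 lower in WT, against 610 and 262 without a filter, 314 and 105 with DESeq2, 111 and 14 with limma on TPM plus 0.5, 111 and 13 on TPM plus 0.1, 90 and 5 with libraries 1 and 2 of both groups (chosen after seeing the data), and 25 lower with GC and length offsets. Leaving out 1 library gave 110 to 204 higher and 7 to 41 lower. Of the 10 genes, 0 were called higher with limma on TPM at either pseudocount and with libraries 1 and 2 alone, and 0 to 1 when 1 library was left out, with 0 called lower. *Nt5e* was the 1 gene called lower without a filter, with the block in edgeR (log2 fold change -1.01), with the block in DESeq2 (-0.99), and with the block and offsets (-0.996). Without *Ifnar1*-/- library 3 the adjusted p of *Cd40* was 0.0525 in edgeR. The causes of these changes were not tested.

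Signs reversed for *Cd80* with voom (0.0089), with DESeq2 and the block (0.016), with offsets (0.10), and with offsets and the block (0.11). They reversed for *Cd86* (0.049 and 0.033) and *Vsir* (-0.093 and -0.081) with offsets, without and with the block. When 1 library was left out, log2 fold changes ran from -0.17 to 0.27 for *Cd80*, -0.20 to 0.0022 for *Cd86*, -0.24 to 0.32 for *Havcr2*, and -0.60 to 0.060 for *Pdcd1lg2*, and the difference in the log2 ratio of *Cd80* to *Cd86* ran from -0.13 to 0.43. The cause was not tested.

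Across genes, deviations from the group mean correlated between libraries of the same number by 0.0950, 0.0264, and 0.253. Between libraries of different numbers the correlations ran from -0.183 to 0.0775. The highest of these was that of *Ifnar1*-/- library 2 with WT library 1, above its 0.0264 with WT library 2. The values do not settle whether the numbers mark pairs, so the edgeR test above used no block. WT and *Ifnar1*-/- libraries may share the 3 recipient mice. With the block, edgeR called 182 genes higher and 38 lower, *Cd40* stayed called (adjusted p = 0.0244), and no other call among the 10 genes changed besides *Nt5e*. Paired by number, the 2 ratios had exact sign-flip p-values of 0.25 and 0.75, and the smallest such p is 0.25. At 2 to 4 counts per library, *Cd276* was removed by the filter of the edgeR test. It was fitted in edgeR without a filter and in DESeq2 with and without the block, and was called in none of these.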
